A study of Mus musculus with 9 samples.

Results

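The 38 genes described here encode secreted proteins of complement and of blood coagulation, of which the liver is the main source for most. They were chosen by name and function from 20972 named genes on the array, with earlier results of these data known. All 38 had at least 1 probe, 49 probes in all, and all were well above background on the arrays of all 9 mice, so that none was lost to a filter on dim probes. The arrays measured RNA from the whole liver of male mice at 20 weeks of age, with 1 array per mouse and 3 mice in each group. STAM-NON mice had been injected with streptozotocin, a toxin of the insulin-secreting cells of the pancreas, as newborns of the strain C57BL/6J, had then been fed a high-fat diet, and received no insulin. STAM-INS mice had the same streptozotocin and diet and were injected under the skin every day with the long-acting insulin glargine. Normal mice were untreated males on standard chow. At this age the STAM liver is at the stage of liver cancer, and the sources used here do not say whether tumour tissue was part of the pieces taken, so that fewer hepatocytes and less RNA per hepatocyte cannot be told apart.

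Complement is a cascade of plasma proteases that mark and lyse targets. The classical and lectin routes start it through C1 or the mannose-binding lectins, all routes meet at the cleavage of C3, and C5 to C9 then build a pore in the target membrane. Coagulation is a second protease cascade, which ends when thrombin turns fibrinogen into fibrin, with anticoagulants that hold it back and plasmin that dissolves the clot. Hepatocytes secrete most of these proteins, several of them rise in the acute phase response to inflammation, and clotting tests are used in the clinic as a measure of how well the liver makes proteins.

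Levels are log2 values of the background-subtracted signal on an array, counted from the 75th percentile over its probes, so that a level of 0 is that percentile and a difference of 1 is a factor of 2. Each probe has its own brightness, and levels of different genes were therefore not compared. All STAM arrays were on 1 slide and all Normal arrays on another, so slide and group cannot be told apart in any comparison with Normal. Between 46.2% and 65.0% of spots were well above background, and arrays of 1 group correlated at r of 0.979 or more over all probes tested. Of the 15 hepatocyte markers examined, such as albumin and transthyretin, all were measured, and their median lay 0.18 to 0.49 below the Normal mean in the 6 STAM mice.

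One mouse stood apart for these genes, and the results below are given with and without it. STAM-NON replicate 1 had the lowest level of all 9 mice for 36 of the 38 members, against 19.9% of all probes tested. This count depended on the scaling of the arrays: it was 34 with quantile normalisation and 24 with spike-in centring, where STAM-NON replicate 2 was the lowest for 6. The median member of STAM-NON replicate 1 lay at -0.82 from the Normal mean, while the median members of STAM-NON replicates 2 and 3 lay at -0.28 and -0.08. In the STAM-INS mice the median members lay at -0.04, 0.10 and 0.01. Between STAM-NON replicate 1 and the mean of the other STAM-NON mice the median difference was -0.70 over the members and -0.04 over all probes, and 37 of the 38 members were lower in replicate 1. The drop exceeded 1 on the log2 scale for 9 members, against 2.26% of all probes. The members therefore varied more in STAM-NON than elsewhere, with a median SD of 0.436, against 0.146 in STAM-INS and 0.075 in Normal, where all probes had medians of 0.229, 0.178 and 0.156. Its array was on the same slide and in the same slide row as those of STAM-NON replicates 2 and 3.

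**Figure D1:**
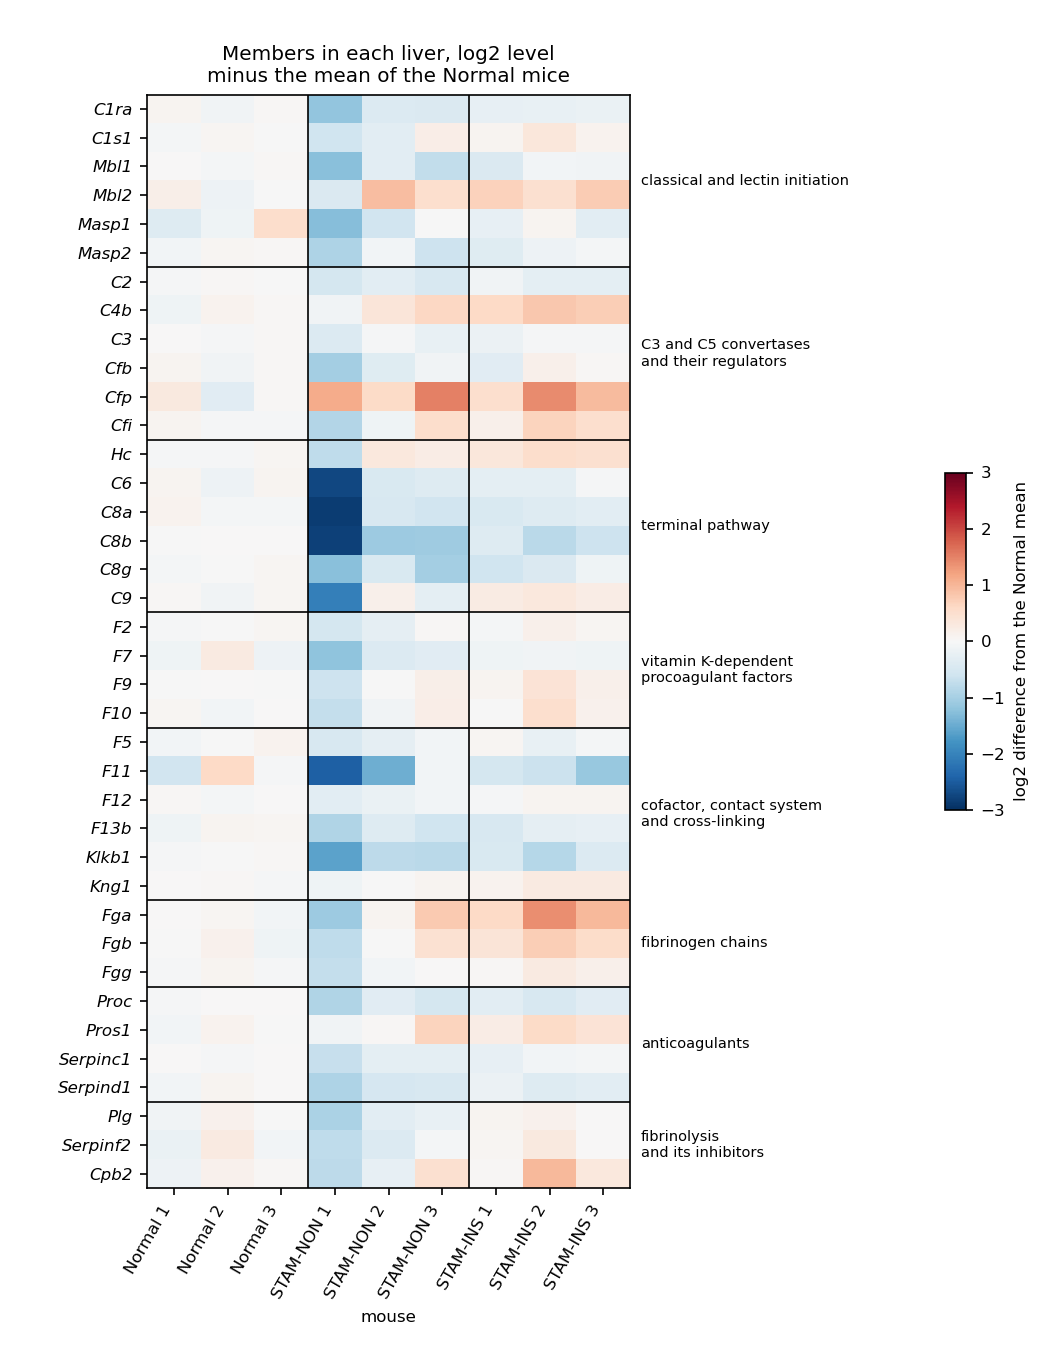
Each cell shows 1 of the 38 members (rows, grouped by role) in 1 mouse (columns) as the log2 level minus the mean of the 3 Normal mice, from blue (lower) to red (higher). STAM-NON replicate 1 is blue in nearly every row, most deeply in C6, C8a and C8b, while the rows of Cfp, C4b and the fibrinogen chains turn red in other STAM mice.

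STAM-NON and Normal livers were compared to see which of these genes differ in the untreated disease model. In STAM-NON, 7 of the 38 members fell and 1 rose (limma, adjusted p under 0.05 over all 26289 probes tested). Of all probes, 8.32% were called lower and 6.47% higher in this comparison. The members that fell were Klkb1, Serpind1, C8g, F13b, C2, Proc and C8b, and the member that rose was Cfp. The median difference was -0.41 over the members and -0.11 over all probes, and 34 of the 38 differences were below 0, where 61% of all probes were. In 18 members every STAM-NON mouse lay below every Normal mouse, a pattern shown in the same direction by 26.0% of all probes, and in 1 member, Cfp, every STAM-NON mouse lay above.

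Without STAM-NON replicate 1, the calls that passed were those of C8b and Klkb1, and the median difference was -0.20 with 26 members below 0. Of all probes, 4.91% were called in that fit, a share close to 2 of 38. In 18 members both remaining STAM-NON mice lay below all Normal mice, as 29.4% of all probes did. The sign of the small differences depended on how the arrays were scaled: 23 of the 38 members kept theirs under 7 scalings, 20 of them below 0 and 3 above 0 (Cfp, C4b and Mbl2). With arrays centred on spike-in controls the median over all probes moved to 0.18 and 20 members were below 0, and with quantile normalisation 21 were.

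STAM-INS and STAM-NON livers were compared to ask what insulin treatment changed. No member passed the threshold; the lowest limma adjusted p was 0.480, that of Plg. At an unadjusted p under 0.05, 11 members were higher in STAM-INS and none lower, where 4.62% of all probes were higher, and the methods' t-test passed 1 member before adjustment and 0 after it. That count of 11 moved with single mice: it was 2 without STAM-NON replicate 1, 17 without STAM-NON replicate 2, 26 without STAM-NON replicate 3, 3 without STAM-INS replicate 2, 2 without STAM-INS replicate 3 and 5 or 6 without 1 of the Normal mice. With the slide row as a block it was 0, and all STAM-NON arrays shared their row with 1 STAM-INS array. Over all probes, 0.0114% were called higher and 0.0837% lower after adjustment. The difference was above 0 for 37 of the 38 members, with Cfp the exception at -0.12, and 54.2% of all probes were above 0. The median was 0.43 over the members and 0.02 over all probes. In 15 members every STAM-INS mouse lay above every STAM-NON mouse, as 7.48% of all probes did. Without STAM-NON replicate 1 the median difference was 0.19, with 36 members above 0 and still no call.

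STAM-INS and Normal livers were compared to see what still differed under insulin. C4b rose and no member fell (limma, adjusted p under 0.05), where 5.37% of all probes were called higher and 7.87% lower. The differences split evenly, with 19 above 0 and 19 below 0, and the median was -0.01 over the members and -0.07 over all probes. In 12 members every STAM-INS mouse lay above every Normal mouse, as 16.2% of all probes did, and in 11 every one lay below, as 27.1% of all probes did. Among the 12 were C4b, Cfp, Mbl2, Hc, Fga and Fgb, and among the 11 were C8a, C8b, C8g, Klkb1, F13b, Proc and C2. STAM-NON replicate 1 also entered this comparison, through the estimate of the spread that the groups share: without it, 6 members were called, with C4b, Mbl2, Hc and Fga higher and C8b and Klkb1 lower, where 13.2% of all probes were called in either direction.

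**Figure D2:**
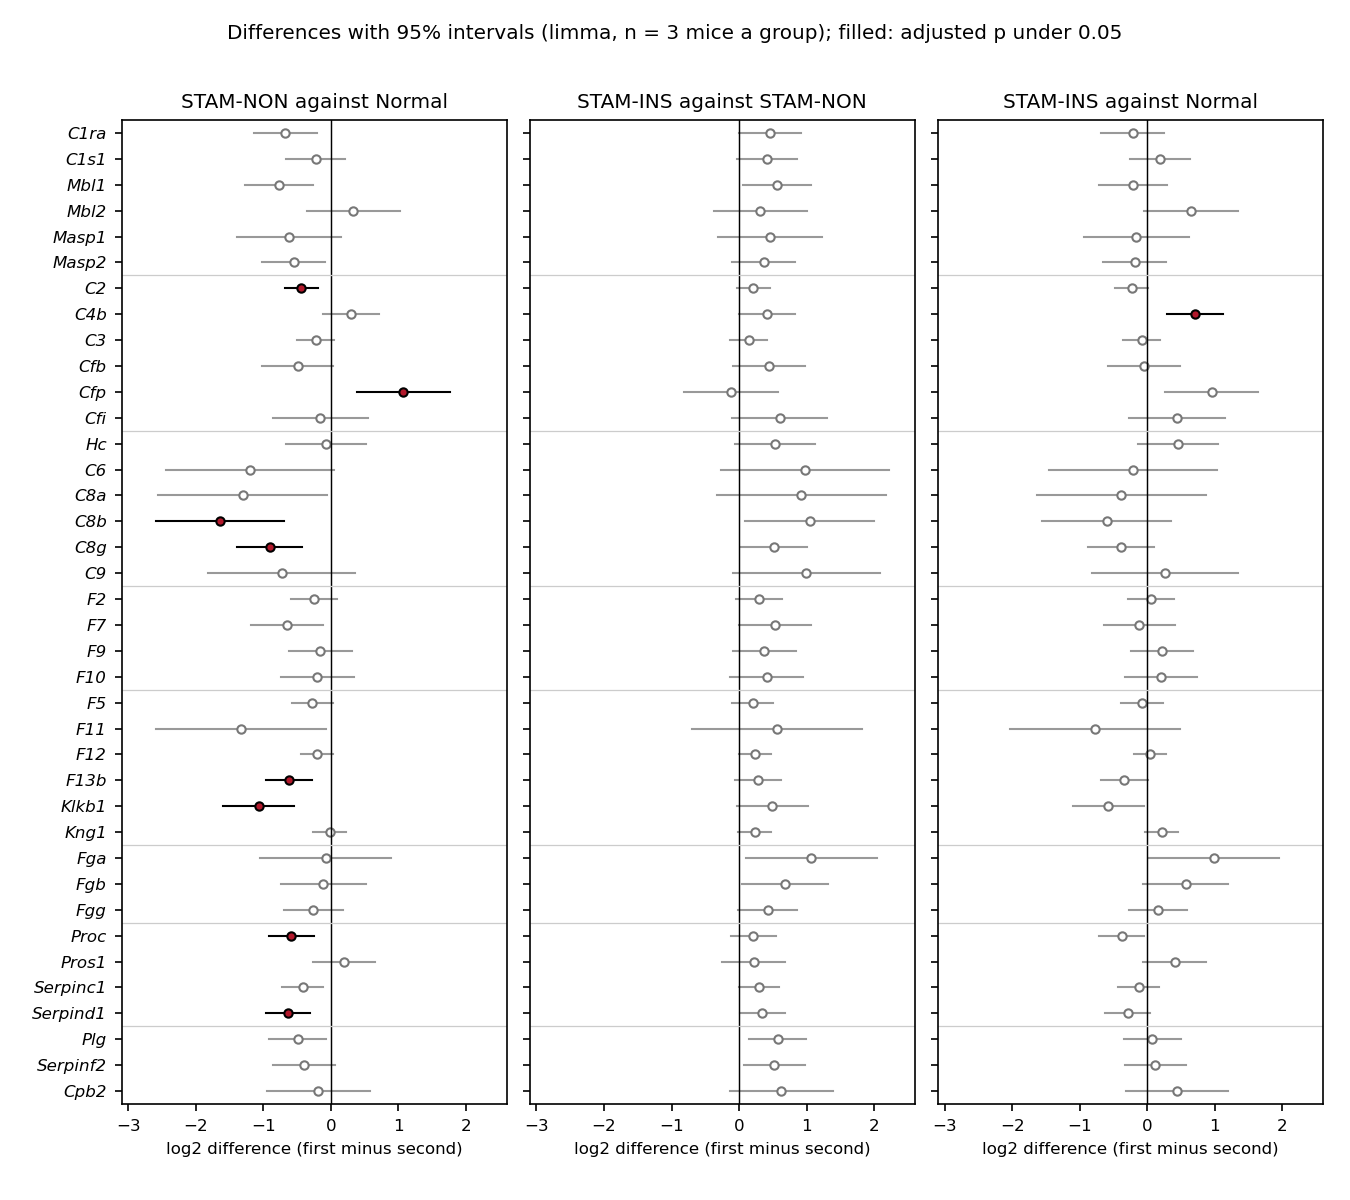
Points are fitted log2 differences of the 38 members in the 3 comparisons (first group minus second, horizontal axis) and lines their 95% intervals from limma with n = 3 mice a group; filled points passed the adjusted p of 0.05. In the left panel 34 of 38 points lie below 0, in the middle panel 37 lie above 0 with none filled, and in the right panel 19 lie on each side.

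The terminal pathway, which builds the membrane pore, held the widest difference of all members between STAM-NON and Normal, that of C8b. C8b encodes the beta chain of C8 and read 3.71, 5.41 and 5.43 in STAM-NON, 6.12, 5.68 and 5.88 in STAM-INS and 6.49, 6.50 and 6.50 in Normal. All STAM-NON mice lay below all others, and the STAM-INS mice lay between the other groups. C8b fell by 1.65 in STAM-NON against Normal, a factor of 3.13 (SE 0.41, limma adjusted p 0.0358), and without STAM-NON replicate 1 it fell by 1.07 (SE 0.14, limma adjusted p 0.0180). Between STAM-INS and STAM-NON its difference was 1.04 (SE 0.41, limma adjusted p 0.535). The gene of the alpha chain, C8a, lies next to C8b on chromosome 4, and read 3.63, 6.01 and 5.91 in STAM-NON, 6.03, 6.10 and 6.18 in STAM-INS and 6.60, 6.43 and 6.43 in Normal. The 3 groups did not overlap, but replicate 1 lay a factor of 5.01 below the mean of the other STAM-NON mice, and the difference from Normal of -1.30 did not pass (SE 0.55, limma adjusted p 0.132). Without that mouse it was -0.53 (SE 0.12, limma adjusted p 0.0511). On the other probe of C8a the STAM-INS mice overlapped with both other groups.

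C8g, the gamma chain, read 7.47, 8.29 and 7.72 in STAM-NON, 8.14, 8.29 and 8.60 in STAM-INS and 8.67, 8.73 and 8.79 in Normal. Every Normal mouse lay above every STAM mouse, treated or not. C8g fell by 0.91 in STAM-NON against Normal (SE 0.21, limma adjusted p 0.0295), and its other probe fell by 1.01 (limma adjusted p 0.0286). C6, which binds C5b and then gathers the later pore proteins, read 1.81, 4.07 and 4.14 in STAM-NON, 4.24, 4.23 and 4.49 in STAM-INS and 4.62, 4.37 and 4.61 in Normal. C6 thus ran the same way as C8a, with replicate 1 a factor of 4.92 below its group mates, a difference from Normal of -1.19 (limma adjusted p 0.159), and one of -0.43 without that mouse. C9, the protein that polymerises into the pore, read 1.16, 3.35 and 2.91 in STAM-NON, 3.46, 3.52 and 3.43 in STAM-INS and 3.24, 3.10 and 3.27 in Normal. Here the STAM-INS mice were the highest and the STAM-NON mice straddled the Normal ones, with differences of -0.73 between STAM-NON and Normal and 1.0 between STAM-INS and STAM-NON (limma adjusted p 0.300 and 0.582). Hc, the mouse gene for C5, differed from Normal by -0.08 in STAM-NON and by 0.46 in STAM-INS, where all its mice lay above all Normal mice.

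The bases before the start of C8a and C8b are shown because they are neighbouring genes of 1 protein complex. Both were lowest in STAM-NON replicate 1 and ran in the same direction in all comparisons. This was not particular to them: that mouse was the lowest for 36 of the 38 members. C8g and Klkb1, among others, also ran in these directions. The sequences are those of RefSeq for the build GRCm38.p6, cover the 250 bases before the annotated start and are written 5′ to 3′ on the strand of the gene. Capitals mark matches to any of 5 short motifs of factors that act in the liver, searched on both strands. These were GTTAATNAT (the HNF1 motif), CAAAGTCCA (HNF4), TTGCNNAA (C/EBP), CTGGGAA (the type of element known from acute phase genes) and TTCNNNGAA (STAT factors), where N is any base.
C8a (chr4:104876399-104876648, minus strand): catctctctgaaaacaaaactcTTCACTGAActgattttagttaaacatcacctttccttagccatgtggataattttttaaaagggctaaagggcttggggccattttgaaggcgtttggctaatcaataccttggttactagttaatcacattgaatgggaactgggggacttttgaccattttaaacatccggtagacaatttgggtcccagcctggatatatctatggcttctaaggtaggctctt
C8b (chr4:104766067-104766316, plus strand): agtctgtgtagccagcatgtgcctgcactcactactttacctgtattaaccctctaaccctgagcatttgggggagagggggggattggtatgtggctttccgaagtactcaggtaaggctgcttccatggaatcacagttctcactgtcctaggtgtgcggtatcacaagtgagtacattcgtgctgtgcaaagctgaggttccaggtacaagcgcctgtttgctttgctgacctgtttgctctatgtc
The capitals in C8a mark 1 match to the STAT letters, and the C8b window held no match to any of the 5. Of the 38 members, 30 had a promoter sequence in the table used, with 32 promoters. The HNF1 letters were in 3 of these 32, the HNF4 letters in 0, the C/EBP letters in 8, the CTGGGAA letters in 5 and the STAT letters in 6. Over all 32851 promoters of the table the shares were 0.737%, 0.384%, 9.56%, 9.10% and 7.02%. A match of letters is a description of the sequence and shows no binding.

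**Figure D3:**
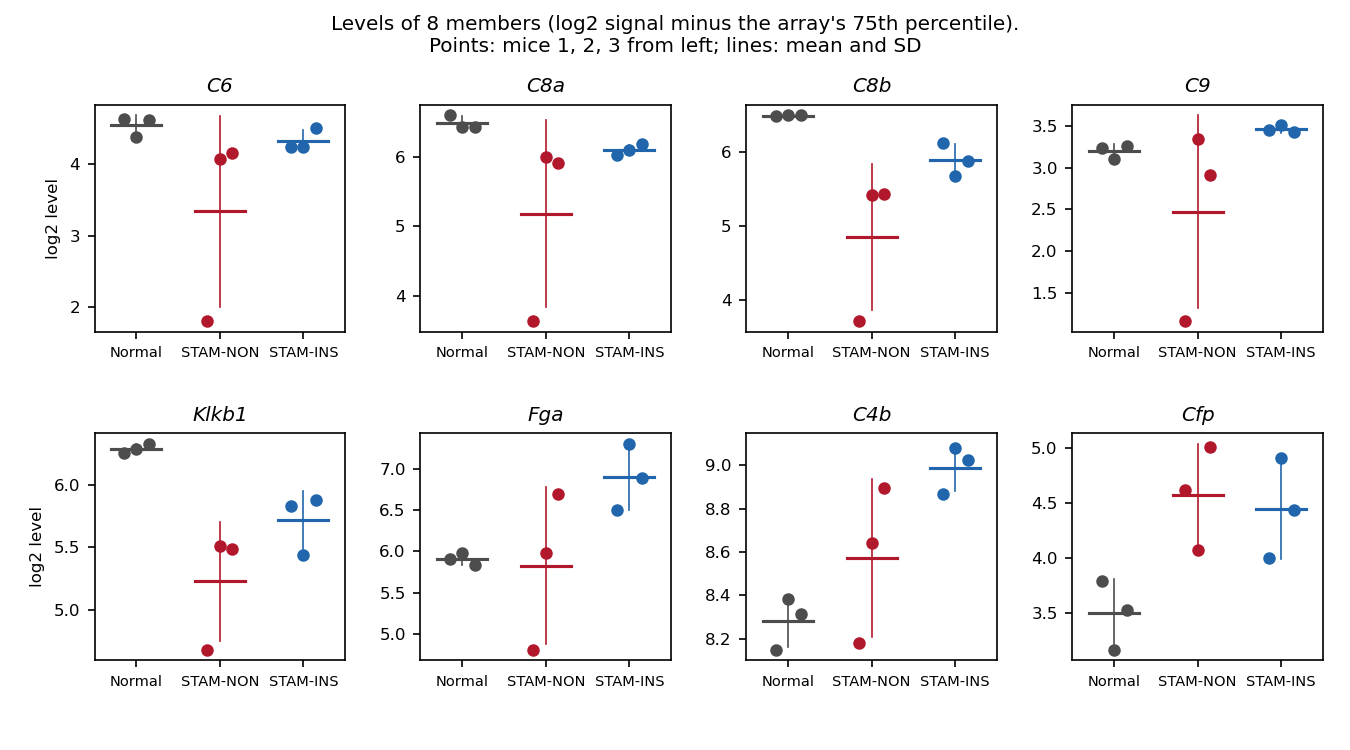
Each panel shows the log2 level (signal minus the 75th percentile of the array) of 1 of 8 members in every mouse, by group, with the mean and SD; points run from replicate 1 to replicate 3 from the left. STAM-NON replicate 1 is far below its group in C6, C8a, C8b and C9, and Klkb1 is lower, and Cfp higher, in all STAM mice than in all Normal mice.

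Among the genes that start the classical and lectin routes, none of 6 passed in any comparison. C1ra and C1s1 encode the proteases of C1, and Masp1 and Masp2 those that work with the mannose-binding lectins Mbl1 and Mbl2. In STAM-NON against Normal the differences of C1ra, Mbl1, Masp1 and Masp2 ran from -0.77 to -0.55, with Mbl1 (SE 0.22, limma adjusted p 0.0507) and C1ra (SE 0.20, limma adjusted p 0.0568) just short of the threshold. The other probe of C1ra passed at -0.71 (limma adjusted p 0.0494). C1ra and C1s1 have near-identical copies, C1rb and C1s2, whose RNA such probes may also bind. The lectins ran apart: Mbl2 read 8.16, 9.51 and 9.08 in STAM-NON, 9.28, 9.06 and 9.35 in STAM-INS and 8.75, 8.43 and 8.58 in Normal. All STAM mice but STAM-NON replicate 1 lay above all Normal mice for Mbl2, while all STAM mice lay below all Normal mice for Mbl1. The differences of Mbl2 from Normal were 0.33 in STAM-NON and 0.64 in STAM-INS (limma adjusted p 0.459 and 0.181). One of the other probes of Masp2 differed from its main probe in sign in STAM-INS against Normal, at 0.02 against -0.19, and had -0.09 in STAM-NON against Normal, where the main probe had -0.55.

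The convertases cut C3 and C5, and here 1 member fell and 1 rose in STAM-NON against Normal. Of all probes, 8.32% were called lower and 6.47% higher. Cfp encodes properdin, which stabilises the convertase of the alternative pathway and is made mainly by leukocytes. It read 4.62, 4.07 and 5.01 in STAM-NON, 4.0, 4.91 and 4.44 in STAM-INS and 3.79, 3.17 and 3.53 in Normal. All 6 STAM mice lay above all Normal mice. Cfp rose by 1.07 in STAM-NON against Normal, a factor of 2.10 (SE 0.30, limma adjusted p 0.0488), and its difference in STAM-INS was 0.95 (SE 0.30, limma adjusted p 0.0715). It was also one of the pair of members for which STAM-NON replicate 1 was not the lowest mouse, the other being C4b. Macrophage markers moved the same way: of 10 listed, 9 were tested, all 9 lay above the Normal mean in 4 of the 6 STAM mice and 8 in the others, their median lay 0.41 to 1.46 above it, and Clec4f, Cd5l and Aif1 rose in both STAM groups. The part of leukocytes in the level of Cfp was not tested.

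C2, which supplies the protease of the classical convertase, read 5.88, 6.08 and 5.92 in STAM-NON, 6.30, 6.11 and 6.10 in STAM-INS and 6.37, 6.44 and 6.39 in Normal. Every Normal mouse lay above every STAM mouse. C2 fell by 0.44 in STAM-NON against Normal, a factor of 1.35 (SE 0.11, limma adjusted p 0.0334), with little drop in replicate 1 beyond the others (-0.12). C4b encodes C4, the partner of C2 in that convertase, and has a near-identical copy, C4a. It read 8.18, 8.64 and 8.90 in STAM-NON, 8.87, 9.08 and 9.02 in STAM-INS and 8.15, 8.38 and 8.31 in Normal. The STAM-INS and Normal mice did not overlap, and the STAM-NON mice spanned both. C4b rose by 0.71 in STAM-INS against Normal, a factor of 1.63 (SE 0.18, limma adjusted p 0.0393), while its difference in STAM-NON was 0.29 (limma adjusted p 0.283). The partners of 1 convertase thus lay on opposite sides of Normal in the STAM-INS mice, with C2 at -0.23 (limma adjusted p 0.182). C3, on which all routes meet, read 10.20, 10.58 and 10.39 in STAM-NON, 10.44, 10.59 and 10.57 in STAM-INS and 10.61, 10.58 and 10.64 in Normal. Its levels lay within a narrow range, with STAM-NON replicate 1 the lowest. C3, Cfb, the alternative protease, and Cfi, which inactivates C3b and C4b, did not pass in any comparison, with differences from Normal of -0.49 to -0.16 in STAM-NON and -0.08 to 0.44 in STAM-INS. The probes of C3 differed in sign in STAM-INS against Normal, at -0.08 and 0.17.

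In coagulation, the contact system held the lowest adjusted p of all members. Klkb1 encodes plasma prekallikrein, which activates factor XII and releases bradykinin from kininogen. It read 4.68, 5.51 and 5.49 in STAM-NON, 5.83, 5.44 and 5.88 in STAM-INS and 6.26, 6.29 and 6.33 in Normal. All STAM mice lay below all Normal mice, and the STAM-INS mice overlapped with the STAM-NON mice. Klkb1 fell by 1.07 in STAM-NON against Normal, a factor of 2.09 (SE 0.23, limma adjusted p 0.0244), and without replicate 1 it fell by 0.79 (SE 0.15, limma adjusted p 0.0371). Its difference in STAM-INS against Normal was -0.58 (SE 0.23, limma adjusted p 0.128). F13b, the carrier subunit of the factor that cross-links fibrin, read 3.74, 4.26 and 4.05 in STAM-NON, 4.15, 4.36 and 4.38 in STAM-INS and 4.51, 4.71 and 4.69 in Normal. It showed the same order of groups, with all STAM mice below all Normal mice, and fell by 0.62 in STAM-NON (SE 0.15, limma adjusted p 0.0329).

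F11, the neighbour of Klkb1 on chromosome 8 and a protease of the same system, read 1.50, 2.48 and 3.86 in STAM-NON, 3.43, 3.30 and 2.80 in STAM-INS and 3.38, 4.54 and 3.92 in Normal. These values overlapped between all groups, and its difference of -1.33 between STAM-NON and Normal, among the widest of the members, had an SE of 0.55 and did not pass (limma adjusted p 0.128). The other members of this role differed less. F5, the cofactor of factor X, read 5.24, 5.45 and 5.64 in STAM-NON, 5.76, 5.50 and 5.65 in STAM-INS and 5.63, 5.71 and 5.81 in Normal, overlapping between all groups. F5, F12, the factor XII that starts the contact pathway, and Kng1, the kininogen from which bradykinin is released, differed from Normal by -0.28 to -0.02 in STAM-NON and by -0.08 to 0.21 in STAM-INS. Kng1 has a near-identical copy, Kng2, and its other probe differed by -0.48 in STAM-NON against Normal without overlap and by 0.59 in STAM-INS against STAM-NON, where the main probe had -0.02 and 0.23.

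None of the 4 vitamin K-dependent procoagulant factors passed in any comparison. F2 (prothrombin), F7 (which starts clotting with tissue factor), F9 and F10 differed from Normal by -0.65 to -0.15 in STAM-NON and by -0.12 to 0.22 in STAM-INS. The widest of these was F7 in STAM-NON, where all its mice lay below all Normal mice (SE 0.23, limma adjusted p 0.0889). The other probe of F10 had a difference of 0.03 in STAM-NON, where the main probe had -0.20.

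The fibrinogen chains were highest in STAM-INS, without passing the test. Fga encodes the alpha chain and read 4.81, 5.98 and 6.69 in STAM-NON, 6.51, 7.30 and 6.88 in STAM-INS and 5.91, 5.98 and 5.83 in Normal. The STAM-INS mice lay above all Normal mice, and the STAM-NON mice spanned from below to above them. Its other probe overlapped between STAM-INS and Normal, with differences of 0.34 there and of -0.38 in STAM-NON against Normal. On the main probe the differences of Fga in STAM-INS were 1.07 against STAM-NON (SE 0.42, limma adjusted p 0.532) and 0.99 against Normal (SE 0.42, limma adjusted p 0.148), a factor of 1.99 in the latter. Fgb, the beta chain, and Fgg, the gamma chain, differed by 0.57 and 0.16 in STAM-INS against Normal and by 0.68 and 0.42 in STAM-INS against STAM-NON, and did not pass. Without STAM-NON replicate 1, Fga was called higher in STAM-INS than in Normal (limma adjusted p 0.0414). Fibrinogen is itself an acute phase protein. All 9 other acute phase genes examined were, like the 3 chains, higher in STAM-INS than in either other group. Between STAM-NON and Normal all 9 were above 0, with a median of 0.43, and the 3 chains were below 0. The sign of the chains depended on STAM-NON replicate 1. Without that mouse their differences from Normal were 0.43 for Fga, 0.22 for Fgb and -0.03 for Fgg. In that mouse 5 of the 9 acute phase genes also lay below the Normal mean. The acute phase median lay at 0.52, 2.0 and 1.20 above the Normal mean in the STAM-INS mice and at -0.01, 0.46 and 1.01 in the STAM-NON mice. Saa1 and Saa2, encoding serum amyloid A, rose by 4.59 and 4.55 in STAM-INS against Normal (SE 0.60 and 0.57, limma adjusted p 0.00425 and 0.00375). Of the 9, 4 rose in STAM-INS and 1 in STAM-NON against Normal, where 5.37% and 6.47% of all probes were called higher.

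The promoters of the fibrinogen chains are shown because their genes lie side by side on chromosome 3 and the 3 chains make up 1 protein. In STAM-INS the 3 chains had the same order of mice, with replicate 2 the highest and replicate 1 the lowest. This order was not particular to them: C4b, Cfb and F2 also had it. STAM-INS replicate 2 was the highest of all 9 mice for 16 of the 38 members. Build, window and capitals are as above.
Fga (chr3:83025903-83026152, plus strand): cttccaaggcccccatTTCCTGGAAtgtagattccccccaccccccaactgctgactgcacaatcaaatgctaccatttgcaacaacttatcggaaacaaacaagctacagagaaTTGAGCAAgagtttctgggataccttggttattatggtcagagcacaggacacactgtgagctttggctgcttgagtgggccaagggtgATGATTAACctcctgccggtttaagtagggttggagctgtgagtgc
Fgb (chr3:83049864-83050113, minus strand): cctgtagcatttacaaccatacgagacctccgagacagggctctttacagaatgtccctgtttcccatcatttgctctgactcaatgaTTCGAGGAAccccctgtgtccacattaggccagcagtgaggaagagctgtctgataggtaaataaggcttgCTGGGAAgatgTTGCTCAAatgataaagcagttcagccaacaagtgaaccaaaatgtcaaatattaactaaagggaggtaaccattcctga
Fgg (chr3:83007474-83007723, plus strand): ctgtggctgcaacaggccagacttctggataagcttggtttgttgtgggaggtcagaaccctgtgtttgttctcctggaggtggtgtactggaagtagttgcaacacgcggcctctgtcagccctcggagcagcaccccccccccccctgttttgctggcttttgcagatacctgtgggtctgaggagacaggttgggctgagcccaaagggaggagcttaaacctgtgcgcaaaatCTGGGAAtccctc
The capitals mark, in this order along each sequence, the STAT, C/EBP and HNF1 letters in Fga, the STAT, acute phase and C/EBP letters in Fgb and the acute phase letters in Fgg. In Fga the C/EBP and HNF1 letters were read on the opposite strand.

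Among the anticoagulants, 2 of 4 fell in STAM-NON against Normal, where 8.32% of all probes were called lower. Serpind1 encodes heparin cofactor II, an inhibitor of thrombin, and read 6.69, 7.13 and 7.15 in STAM-NON, 7.45, 7.24 and 7.31 in STAM-INS and 7.55, 7.70 and 7.63 in Normal. The 3 groups did not overlap, and Serpind1 fell by 0.64 in STAM-NON (SE 0.14, limma adjusted p 0.0277). Proc encodes protein C, which inactivates factors V and VIII, and read 7.19, 7.74 and 7.54 in STAM-NON, 7.75, 7.59 and 7.75 in STAM-INS and 8.05, 8.09 and 8.09 in Normal. All STAM mice lay below all Normal mice, and Proc fell by 0.59 in STAM-NON (SE 0.15, limma adjusted p 0.0341). Pros1, protein S, the cofactor of protein C, went the other way, at 2.73, 2.88 and 3.51 in STAM-NON, 3.07, 3.43 and 3.26 in STAM-INS and 2.77, 2.95 and 2.83 in Normal. The STAM-INS mice lay above all Normal mice for Pros1, with a difference of 0.41 that did not pass (SE 0.20, limma adjusted p 0.206). Serpinc1, antithrombin, differed by -0.42 between STAM-NON and Normal without overlap (SE 0.13, limma adjusted p 0.0650).

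The fibrinolytic members Plg (plasminogen), Serpinf2 (the inhibitor of plasmin) and Cpb2 (which slows fibrinolysis) did not pass in any comparison. They differed by -0.49 to -0.19 in STAM-NON against Normal and by 0.52 to 0.63 in STAM-INS against STAM-NON. All STAM-INS mice lay above all STAM-NON mice for Plg and Serpinf2.

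Each call was close to the threshold. The 8 calls in STAM-NON against Normal had limma adjusted p-values of 0.0244 to 0.0488. Every one was lost when any 1 of the Normal mice was left out, with no filter on dim probes, and with the slide row as a block. The differences kept their signs throughout. The row block could separate row from group only through the STAM-INS arrays, which alone lay in both rows, so its lost calls do not show an effect of row. Klkb1 lost its call under 7 of 24 alternatives, C8g under 10, C8b, Cfp and Serpind1 under 12, F13b under 13, and C2 and Proc under 15.

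**Figure D4:**
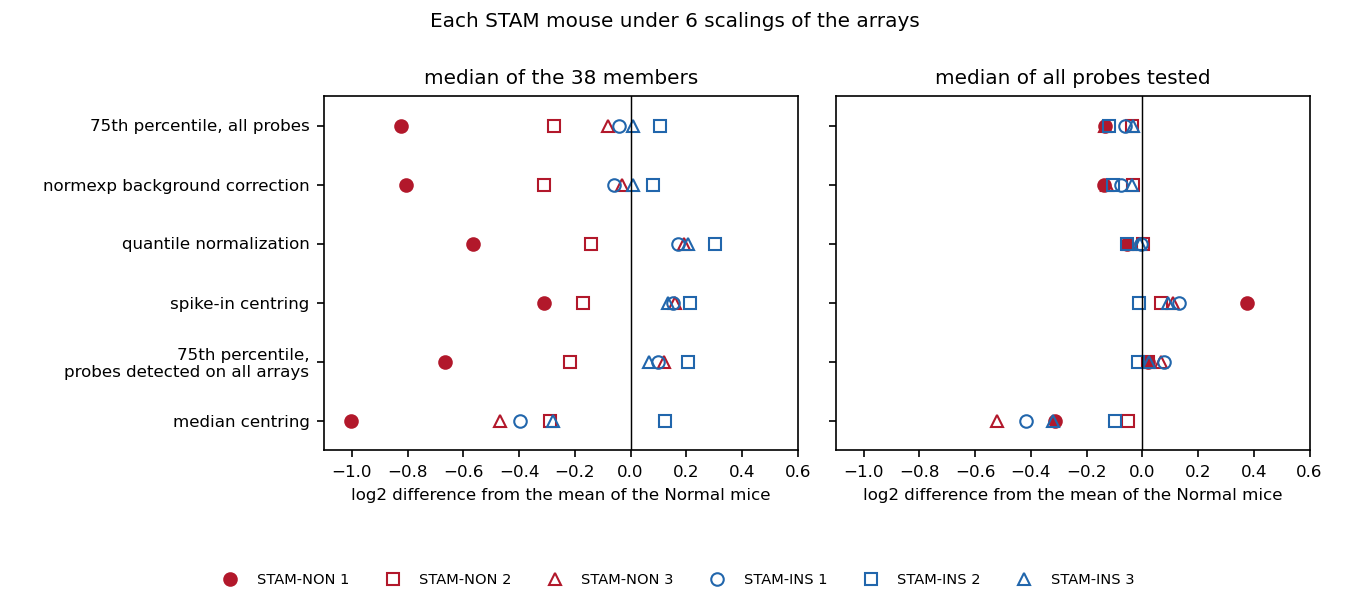
Each row is 1 of 6 scalings of the arrays, and symbols give, for the 6 STAM mice, the median difference from the Normal mean over the 38 members (left) and over all probes tested (right), on a log2 axis. STAM-NON replicate 1 (filled) is the lowest for the members under every scaling shown, at -1.0 to -0.31. Over all probes it runs from -0.31 with median centring to 0.38 with spike-in centring, where it is the highest. With median centring STAM-NON replicate 3 and STAM-INS replicates 1 and 3 are lower over all probes.

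A list of 54 other genes of the same systems, among them receptors, membrane regulators and factors made by other cells, was examined beside the members; 46 were tested. In STAM-NON against Normal, 8 rose and 1 fell (limma, adjusted p under 0.05), and the median difference was 0.11. Of all probes, 6.47% were called higher and 8.32% lower there, with a median of -0.11. The complement genes that rose were C1qc, a chain of the C1q recognition protein, C3ar1 and C5ar1, the receptors of the fragments C3a and C5a, and Itgax, a chain of complement receptor 4. C1qc rose by 1.12 (SE 0.31, limma adjusted p 0.0445), C3ar1 by 1.27 (SE 0.30, limma adjusted p 0.0307) and Itgax by 1.80 (SE 0.45, limma adjusted p 0.0361). C5ar1 was not well above background in any Normal mouse and its signal in STAM-NON was at least 2.92-fold higher (limma adjusted p 0.0111). C3ar1 was measured in 2 of the 3 Normal mice. These are genes of macrophages and other leukocytes, and their direction was that of the macrophage markers given above, whose part in them was not tested.

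The clotting genes that rose were Procr, the receptor of protein C, Tfpi, the inhibitor of tissue factor, Plat, tissue plasminogen activator, and Plaur, the urokinase receptor. Procr rose by 1.68 in STAM-NON and by 1.37 in STAM-INS against Normal (SE 0.28, limma adjusted p 0.0126 and 0.0195). Plat was not well above background in any Normal mouse while STAM-NON mice had a signal at least 2.91-fold higher (limma adjusted p 0.0193) and at least 2.20-fold higher in STAM-INS, where 2 of the 3 mice measured it (limma adjusted p 0.0292). Tfpi rose by 1.29 and Plaur rose by 2.04 in STAM-NON (SE 0.36 and 0.57, limma adjusted p 0.0467 and 0.0471). Serpine2, an inhibitor of thrombin and plasminogen activators, fell by 1.95 in STAM-NON and by 1.78 in STAM-INS (SE 0.30, limma adjusted p 0.0114 and 0.0113). Between STAM-INS and STAM-NON, none of the 46 was called (5 at an unadjusted p under 0.05, 3 higher and 2 lower). In STAM-INS against Normal the calls were those of Procr, Plat and Serpine2, where 5.37% of all probes were called higher and 7.87% lower.

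Marker lists were also read in STAM-NON replicate 1. In that mouse all 10 liver transcription factors examined lay below the Normal mean with a median of -0.41, and in STAM-NON replicates 2 and 3 the medians were -0.06 and -0.44. The hepatocyte markers had a median of -0.49 in replicate 1, -0.28 in replicate 2 and -0.37 in replicate 3. The macrophage median was 1.16 in replicate 1 and 1.18 in replicate 3. Platelet and neutrophil medians were 1.78 and 2.08 in replicate 1, 0.63 and 0.02 in replicate 2, and 3.61 and 6.06 in replicate 3. Of the 7 neutrophil genes tested, 3 lay below the Normal mean in replicate 1. Stellate and cholangiocyte medians were 1.16 and 1.33 in replicate 1, the highest of the STAM-NON mice. Lymphocyte and endothelial medians there were -0.22 and -0.13. Among these marker lists Ly6g and Cd68 had no named probe here. The acute phase median was the lowest of the STAM mice in replicate 1, at -0.01. The part of these in the low values of the members was not tested.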

How the data were processed

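Labelled RNA from 9 livers was hybridised to 1-colour Agilent arrays (SurePrint G3 Mouse, Cy3). The authors deposited scanner files written by Agilent Feature Extraction, version 11.5.1.1, in which the intensity of each spot is background-subtracted on a linear scale and, per the file headers, not normalised between arrays. The study's methods name no normalisation for the arrays; the unpaired t-test of their general statistics is called the methods' t-test here. The titles of the samples gave the groups and the numbers of the mice, and nothing further is given on cages or litters.

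Control spots and spots with outlier flags (161 to 217 per array) were left out, and log2 intensities of the deposited spots were averaged per probe. The 75th percentile over the non-control probes of the array was subtracted. Tests were limited to probes with a share of 0.5 or more of their spots well above background on every array of some group, which left 26289 of 55681 probes. The comparisons used limma (version 3.58.1, R 4.3.3), with lmFit and eBayes fitted two-sided to all 9 arrays and Benjamini-Hochberg adjustment over all tested probes and a threshold of 0.05. The fit was also tested on simulated data. The fold of a probe not well above background in any mouse of a group is given as a bound, against the higher of its own signal and the lowest signal well above background on that array. Probes were named through their accessions with a RefSeq table of GRCm38.p6, which named 27656 of them. The array was designed on another build, and the promoter windows, from the RefSeq promoter table of the same build, are the coordinates given. For genes with several probes, the probe with the highest mean was used, and the others are given where they disagree.

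The members and lists were chosen with earlier results of these data known. All 38 members are accounted for; values in every mouse are given for those called and for the 4 largest differences in each direction of each comparison, and called genes of the other list are named. The precision is limited by 3 mice a group. The alternatives were other scalings (normexp background correction with an offset of 50, quantile normalisation, spike-in controls, the percentile over probes detected on all arrays or over spots, and the median), no filter or a stricter one on dim probes, a trend and robust eBayes, blocks by slide row or replicate number, the compared groups alone, the methods' t-test and leaving out each mouse. Normexp was run on the median signal of the spots because the mean signal is not among the columns used here. The percentile over spots was added after seeing the data. Slide could not be used as a block because it coincides with STAM against Normal.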

Additional observations from a re-analysis of the deposited data

How the results depend on the processing

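Of the members, 8 were called between STAM-NON and Normal; the count was 1 with quantile normalisation, 5 with spike-in centring, 3 with the percentile over probes detected on all arrays, 5 with median centring, 1 with only the compared groups, 0 with no filter on dim probes, the slide row as a block or the methods' t-test, 10 with normexp or only probes detected on all arrays, 9 with the percentile over spots and 11 with trend and robust eBayes. Of all probes, 0.0571% to 17.6% were called under these. The count of members ranged from 0 to 12 when 1 mouse was left out, with 2 without STAM-NON replicate 1. Of all probes, 3.07% to 21.1% were called in those fits. With the replicate block the count was 3, where 6.82% of all probes were called. Same-numbered mice correlated at -0.288 to 0.149 in their deviations. With 3 mice a group this cannot show whether the numbers pair them, and the labels do not say. Between STAM-INS and Normal the single call became 0 with median centring, no filter or the row block. It became 7 within the slide row, 9 with only the compared groups and 3 with the methods' t-test, where 13.2%, 18.4% and 9.25% of all probes were called. When 1 mouse was left out it was 0 to 6, where 4.24% to 16.1% of all probes were called. The median member difference of -0.41 between STAM-NON and Normal was -0.15 with quantile normalisation and -0.13 with spike-in centring. Between STAM-INS and STAM-NON the median was 0.19 to 0.58 when 1 mouse was left out. Under the scalings 15 members changed sign in STAM-NON against Normal, among them Pros1 with median centring (-0.0024), 13 in STAM-INS against Normal and 1 in STAM-INS against STAM-NON, C3 with spike-in centring (-0.0027). When 1 mouse was left out, Cfp ran from -0.37 to 0.10 in STAM-INS against STAM-NON and Pros1 from -0.042 to 0.35 in STAM-NON against Normal. The call of C4b was lost when any 1 STAM-INS or Normal mouse was left out. Before adjustment the methods' t-test passed 10 members in STAM-NON and 19 in STAM-INS against Normal. The share of all probes it passed before adjustment was not counted. The causes were not tested. Slide as a block was not run.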
